A study of Bos taurus with 12 samples.

Results

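The genes described here are 10 genes of the blood vessel wall and of vascular endothelial growth factor (VEGF) signaling: PECAM1, VWF, CDH5, KDR, FLT1, TEK, TIE1, ENG, EMCN and VEGFA. They were chosen by name, and their probes were found through the RefSeq accession that the array annotation gives for each probe. All 10 were on the array, with 27 of its 43653 probes, among 12639 genes that could be named in this way. The study compared the mammary gland (MG) of 12 multiparous Holstein cows in early lactation (24 ± 3 days in milk) under 2 diets. The 6 control (CONT) cows kept free access to a lactation diet. For 4 days the 6 restricted (REST) cows instead ate a poorer mix, in which barley straw made up 48% of the dry matter. Every cow, CONT and REST, had one rear gland of the udder infused with 50 µg of lipopolysaccharide (LPS), a cell wall component of Gram-negative bacteria, on day 3. The MG was biopsied 24 h later. Both groups therefore carried the inflammatory challenge, and the comparison is of diets within it. No unchallenged tissue was analysed here.

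Blood vessels are lined by endothelial cells, which control the exchange of nutrients, fluid and leukocytes between blood and tissue. Their growth and permeability are governed by VEGF, released by neighboring cells and bound by receptor tyrosine kinases on the endothelium, while the angiopoietins and their receptor TEK regulate how stable and tight a vessel is. In the lactating MG a dense capillary bed around the alveoli brings the precursors of milk. During mastitis the same vessels let plasma proteins and neutrophils pass.

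RNA of each biopsy was measured on its own one-color array. Values are log2 intensities minus the 75th percentile of the array, so 0 marks the 75th percentile itself. They compare cows within a probe and do not rank genes by abundance. The biopsy is a mixture of cells, and with bulk RNA fewer endothelial cells cannot be told apart from less RNA per endothelial cell. The 12 arrays correlated at 0.932 to 0.984, and the 75th percentile was 577 to 1184 in CONT and 387 to 1082 in REST. They lay on 3 slides, each of which was also 1 scan session. CONT and REST arrays numbered 3 and 1 on slide 1, 1 and 3 on slide 2, and 2 and 2 on slide 3. Over all 43653 probes no diet difference passed the Benjamini-Hochberg threshold of 0.05 in limma (lowest adjusted p = 0.777), whereas 1143 probes (2.62%) had an unadjusted p under 0.05. The Westfall-Young adjustment gave 0 probes too, with a lowest adjusted p of 0.24.

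The scanner software marks spots that are well above background. Among the 27 probes, this held for 19 on the whole set of 12 arrays, for 7 on some arrays, and for 1 probe of VWF on none. PECAM1 (NM_174571), KDR (NM_001110000), FLT1 (NM_001191132) and EMCN (NM_001076420) had 2 probes each. CDH5 (NM_001001601) and VEGFA (NM_174216) had 3, ENG (NM_001076397) had 4 and VWF (NM_001205308) had 7. TEK (NM_173964) and TIE1 (NM_173965) had a single probe. The probe with the highest mean stands for the gene, and the other probes are given beside it. The endothelial genes of the set were set beside 21 other endothelial markers, 20 of which passed that mark on the 12 arrays. This comparison does not establish which cells gave the signal.

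One cow stood apart for these genes. CONT 6 had the lowest value of all 12 cows for PECAM1, VWF, CDH5, KDR, TEK, TIE1, ENG and EMCN, that is for 8 of the 9 endothelial genes. Over all named genes CONT 6 was the lowest cow for 25.7%. Against the mean of the other CONT cows its values deviated by -1.15 (TIE1) to -2.43 (CDH5) on the log2 scale. Many genes were low in that cow: 16.8% of all genes deviated as far down as TIE1 and 12% as far as EMCN, against 1.82% for CDH5 and 3.52 to 5.72% for PECAM1, VWF, KDR, TEK and ENG. The other 5 CONT cows and the 6 REST cows lay close together for most of these genes, as the plot of values by cow shows. By probe, CONT 6 was lowest on 22 of the 24 endothelial probes. The exceptions were the brightest FLT1 probe and the dimmest CDH5 probe. Because a single CONT cow pulled the CONT mean down, the diet differences of the set and of the lists are given with and without it.

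**Figure D1:**
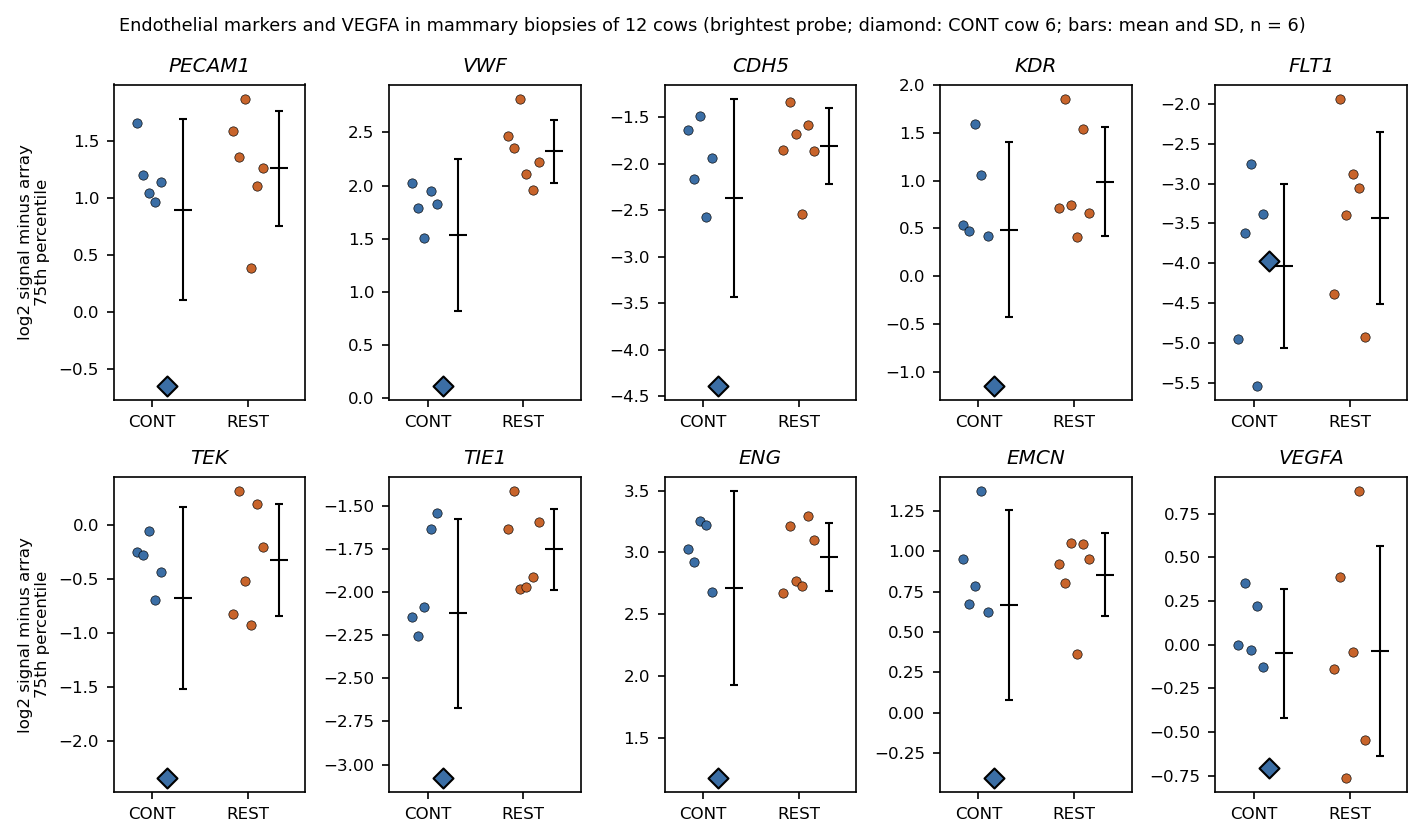
Log2 signal minus the array's 75th percentile (vertical axis, arbitrary log2 units) of the brightest probe of each gene in 6 CONT (blue) and 6 REST (orange) cows, with CONT 6 as a diamond and bars for the mean and SD (n = 6). CONT 6 is the lowest point in 8 of the 9 endothelial panels, and 5 of 6 REST cows lie above every CONT cow for VWF.

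The same cow was low for endothelial markers outside the set. Of the 21 other endothelial markers, 20 had their lowest value in CONT 6, and 19 were at least 1 log2 unit below the mean of the other CONT cows, as were 20.1% of all genes. The median deviation was -1.81, and the range ran from -2.998 for the junction molecule ESAM to -0.44 for the transcription factor FLI1. For comparison, the median deviation of all named genes in CONT 6 was -0.11. ROBO4 (-2.07), CLEC14A (-2.19), PLVAP (-2.47) and the water channel AQP1 (-2.19) were among the markers that were far lower there.

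Partners of the same signaling axes were low in CONT 6 in part. Against the other CONT cows the apelin receptor APLNR deviated by -3.03 on the log2 scale and DLL4, the Notch ligand of tip cells, by -2.82. PTPRB, the endothelial phosphatase that restrains TEK, deviated by -1.90. ESM1, a tip cell product, ran the other way at 1.97, as did the chemokine receptor CXCR4 at 1.85. These are the extremes: of the 27 partner genes measured, 16 were lowest in CONT 6 and 12 were at least 1 log2 unit below the other CONT cows, beside 25.7% and 20.1% of all genes. VEGFB (-0.17), VEGFC (-0.32) and ANGPT2 (-0.41) deviated little, and the VEGF family ligand PGF was at 1.33.

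Markers of other cell types did not shift together in CONT 6. Mural cells, the pericytes and smooth muscle cells that wrap vessels, had 6 of 9 markers lowest in this cow, with deviations of -2.64 for RGS5 and -1.42 for PDGFRB. The 6 lymphatic endothelial markers were lowest there in 0 cases, with a median deviation of 0.32. Of the 6 fibroblast markers 0 were lowest and 3 highest in CONT 6, and the myoepithelial list had a median deviation of 1.01. Luminal epithelial markers were mixed: the milk protein gene LALBA and the alveolar regulator ELF5 deviated by -2.40 and -1.65, and the keratin gene KRT18 by 1.66. FABP4, a fatty acid carrier of adipocytes that capillary endothelium also expresses, deviated by -3.67. The other adipocyte genes were split, with LEP at -2.91, CIDEC at 1.17 and PLIN1, well above background on 3 arrays, at 0.80. The array of CONT 6 had the highest 75th percentile (1184) and 76.0% of its probes well above background. The part of tissue composition in these values was not tested.

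**Figure D2:**
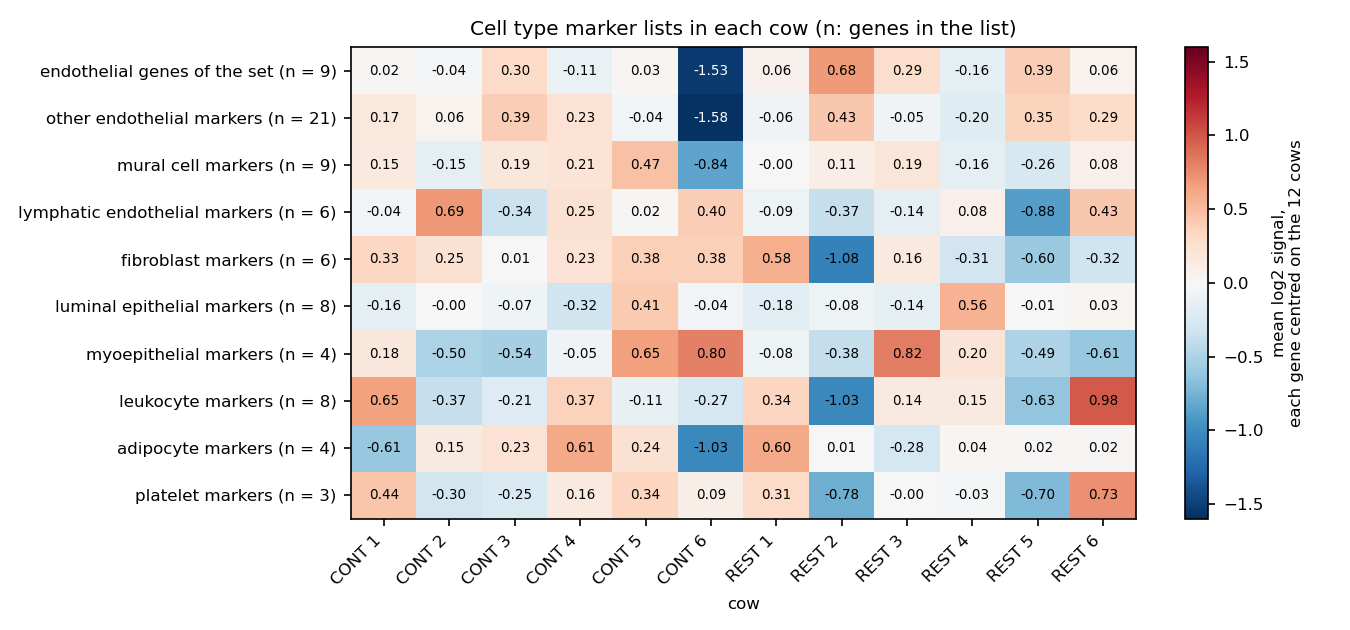
Mean log2 signal of each marker list (rows, n genes) in each cow (columns), with every gene centred on its mean over the 12 cows; red is above and blue below that mean. CONT 6 is at -1.53 for the endothelial genes of the set and at -1.58 for the other endothelial markers, while its fibroblast (0.38) and myoepithelial (0.80) lists are above the mean.

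The mean of the 9 endothelial genes, each centred on the 12 cows, was -1.53 in CONT 6 and -0.11 to 0.30 in the other CONT cows. It ran from -0.16 in REST 4 to 0.68 in REST 2 among REST cows. The difference between REST and CONT was 0.44 over 12 cows and 0.18 without CONT 6. Without that cow the CONT mean was 0.042 ± 0.15 (SD, n = 5) and the REST mean 0.22 ± 0.29 (SD, n = 6). The difference was then smaller than the SD within REST and larger than that within CONT. The mean of the 21 other endothelial markers followed the same cows at the low end, with CONT 6 at -1.58, and its next lowest value was -0.20 in REST 4. Over the 12 cows both means had a Pearson r of 0.935, given as a description because CONT 6 lies far from the rest. Without CONT 6 the r was 0.63.

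**Figure D3:**
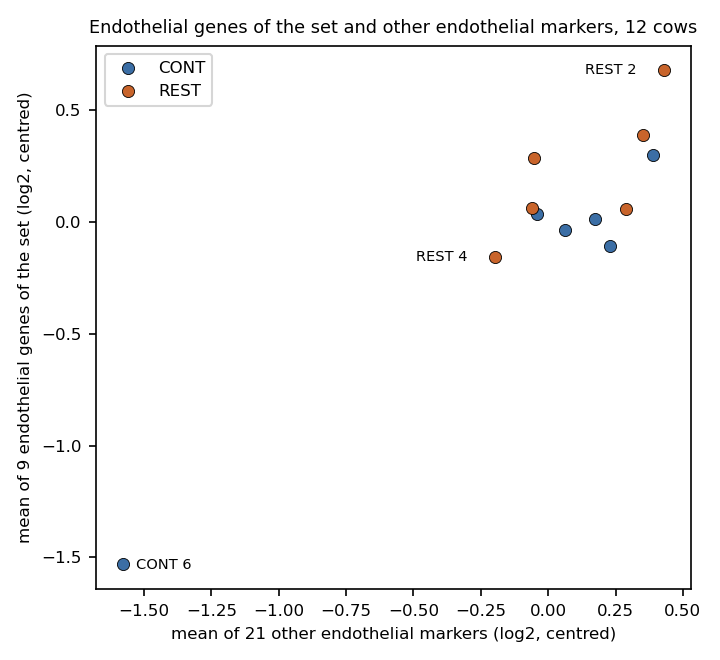
Mean of the 9 endothelial genes of the set (vertical axis) against the mean of 21 other endothelial markers (horizontal axis), both in log2 units centred on the 12 cows, with CONT in blue and REST in orange. CONT 6 lies alone at -1.58 and -1.53, and the other 11 cows lie within -0.20 to 0.43 and -0.16 to 0.68.

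Apart from VWF, whose log2 FC of 0.79 exceeded the SD of both groups (0.72 in CONT and 0.30 in REST), the genes differed between diets by less than the SD among CONT cows. That SD includes CONT 6. For CDH5 and TIE1 the difference (0.55 and 0.37) exceeded the SD among REST cows (0.41 and 0.24). All 27 probes had a higher mean in REST than in CONT, against 46.1% of all probes, but probes of a gene share their target and 23 of the 27 shared the low value of CONT 6. Without CONT 6 a higher mean in REST was found for 21 of 27, against 42.6% of all probes. By gene these counts were 10 of 10 (43.5% of all genes) and, without CONT 6, 7 of 10 (40.2%). An unadjusted p under 0.05 with a higher mean in REST was reached by 5 probes, all of VWF, against 1.74% of all probes. By gene this was VWF alone, 1 of 10. Of all genes 2.64% had such a p, and 1.63% had it with a higher mean in REST. None of the 27 passed the Benjamini-Hochberg threshold in limma (0% of all probes; every adjusted p of the set was 1.00), and for 0 of 27 did the groups separate completely, against 0.126% of all probes.

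**Figure D4:**
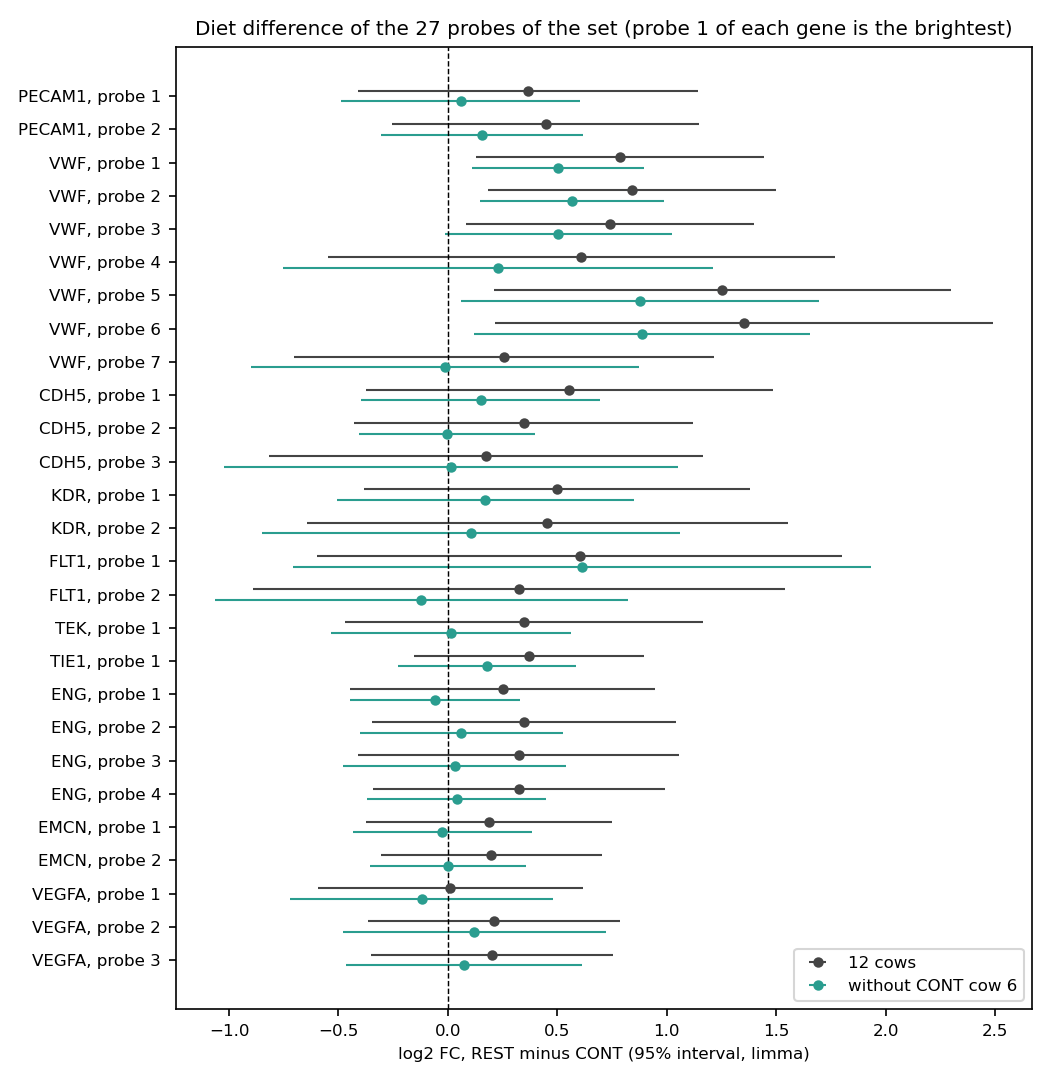
Log2 fold change of REST over CONT (horizontal axis) with its 95% interval for the 27 probes (rows; probe 1 is the brightest of its gene), over 12 cows (grey) and without CONT 6 (green). The intervals of 5 VWF probes lie above 0 with 12 cows and those of 4 without CONT 6, and the interval of every other probe includes 0.

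VEGFA, the ligand that drives endothelial growth and permeability, showed no diet difference beyond the spread between cows. Its values ran from -0.71 (median -0.018) to 0.35 in CONT and from -0.76 (median -0.092) to 0.88 in REST. Both the lowest and the highest cow belonged to REST, namely REST 3 and REST 5, and REST was the more variable group (SD 0.60 against 0.37). The log2 FC was 0.012 (SE 0.28, 95% interval -0.59 to 0.62, exact permutation p = 0.963). It was -0.12 without CONT 6, -0.045 when arrays were centred on their median, -0.012 with normexp and -0.077 with slide as a block, so no direction is given. The other probes had a log2 FC of 0.21 and 0.20, or 0.12 and 0.071 without CONT 6, and on all 3 probes REST 5 and REST 2 were the 2 highest cows.

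KDR, the main signaling receptor of VEGFA on endothelium, ranged from -1.14 (median 0.50) to 1.59 in CONT and from 0.42 (median 0.73) to 1.85 in REST. CONT 6 was the only cow below 0, and the other 11 cows were intermingled, with CONT 3 among the high ones beside REST 2 and REST 5. The log2 FC was 0.50 (SE 0.41, 95% interval -0.38 to 1.38, exact permutation p = 0.307), and 0.17 without CONT 6. Within the slides it was 0.060, 0.73 and 0.48, the last turning to -0.89 without CONT 6. The dimmer KDR probe gave 0.45, and 0.11 without CONT 6.

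FLT1, a receptor that binds VEGFA tightly and signals weakly, was dim, and its brightest probe was well above background in 5 CONT and 5 REST cows. It ranged from -5.53 (median -3.79) to -2.75 in CONT and from -4.92 (median -3.23) to -1.94 in REST. Here CONT 6 was not low: at -3.97 it lay in the middle of its group, whereas on the other FLT1 probe it was the lowest of all cows at -7.56. The log2 FC was 0.60 (SE 0.55, 95% interval -0.60 to 1.80, exact permutation p = 0.340) and 0.61 without CONT 6. It was 0.31 with slide as a block, 0.28 with normexp, 0.30 without CONT 4, 0.30 without REST 2 and 0.90 without REST 6, so its size rested on single cows and on the processing. The second FLT1 probe, well above background in 2 CONT and 3 REST cows, had 0.32, and -0.12 (SE 0.43) without CONT 6. Its values lie near background, so they cannot show whether the 2 probes disagree.

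TEK (TIE2), the angiopoietin receptor, ranged from -2.34 (median -0.35) to -0.053 in CONT and from -0.93 (median -0.36) to 0.32 in REST. The medians were nearly equal and the difference between the means came from CONT 6. The log2 FC was 0.35 (SE 0.38, 95% interval -0.47 to 1.16, exact permutation p = 0.478) and 0.014 (95% interval -0.53 to 0.56) without CONT 6. TIE1, the orphan partner that modulates TEK, was -3.08 (median -2.12) to -1.54 in CONT and -1.98 (median -1.78) to -1.42 in REST. All 6 REST cows were above the CONT mean of TIE1, yet 2 CONT cows were as high as most of REST. Its log2 FC was 0.37 (SE 0.24, 95% interval -0.16 to 0.90, exact permutation p = 0.145), 0.19 with normexp and 0.18 without CONT 6.

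ENG (endoglin), the co-receptor for BMP9 and TGF-β ligands on endothelium, lay between 1.17 (median 2.97) and 3.26 in CONT and between 2.67 (median 2.93) and 3.30 in REST. Apart from CONT 6 the cows of both groups covered the same narrow range. REST exceeded CONT by a log2 FC of 0.25 (SE 0.32, 95% interval -0.45 to 0.95, exact permutation p = 0.647) and -0.058 (95% interval -0.45 to 0.33) without CONT 6. All 4 probes were similar, from 0.25 to 0.35 with 12 cows and from -0.058 to 0.062 without CONT 6.

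PECAM1 (CD31), which joins endothelial cells and guides leukocytes across them, ranged from -0.64 (median 1.09) to 1.66 in CONT and from 0.39 (median 1.31) to 1.87 in REST. REST 4 was low too, below the other 5 CONT cows. This gave a log2 FC of 0.37 (SE 0.36, 95% interval -0.41 to 1.14, exact permutation p = 0.407), and 0.059 without CONT 6. The second probe gave 0.45, and 0.16 without that cow.

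CDH5 (VE-cadherin), the adhesion molecule of endothelial junctions, ranged from -4.39 (median -2.05) to -1.49 in CONT and from -2.54 (median -1.77) to -1.34 in REST. Its CONT 6 value was the furthest from the other CONT cows of the whole set. With it the log2 FC came to 0.55 (SE 0.43, 95% interval -0.37 to 1.48, exact permutation p = 0.286), 0.31 with normexp and 0.15 without CONT 6. The second bright probe gave 0.35 and then -0.0057, and the dim one 0.17 and then 0.014.

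EMCN (endomucin), a sialomucin of capillary and venous endothelium, ranged from -0.41 (median 0.73) to 1.37 in CONT and from 0.36 (median 0.94) to 1.054 in REST. REST 4 was apart from the other REST cows at the low end, and CONT 4 was the highest cow. Its log2 FC was 0.19 (SE 0.26, 95% interval -0.37 to 0.75, exact permutation p = 0.574), and -0.027 (95% interval -0.44 to 0.38) without CONT 6. The second probe gave 0.20 and then 0.00084.

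VWF is the large glycoprotein that endothelial cells store and release to capture platelets. Over 12 cows it had the largest log2 FC and the lowest unadjusted limma p of the 10 genes. Without CONT 6 the log2 FC of FLT1 was larger, at 0.61 (SE 0.60). VWF ran from 0.12 (median 1.80) to 2.03 in CONT and from 1.95 (median 2.29) to 2.82 in REST. In REST 5 cows lay above every CONT cow, and the other one, REST 5 at 1.95, lay below CONT 1 at 2.03. The log2 FC was 0.79 (SE 0.30, 95% interval 0.13 to 1.44), a fold of 1.73, with an exact permutation p of 0.00433 for this probe alone. Without CONT 6 the log2 FC was 0.50 (SE 0.18, 95% interval 0.11 to 0.90, exact permutation p = 0.00866), and all 6 REST cows remained above the CONT mean. Over all probes the adjusted p in limma was 1.00, so the difference did not pass the test.

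The VWF difference was seen on several probes and unevenly across slides. The bright probes, 3 in number and well above background throughout, had a log2 FC of 0.79, 0.84 and 0.74. Without CONT 6 these were 0.50, 0.57 and 0.50. Of the dim ones, those well above background on 8 and 6 arrays had 1.25 and 1.35 (0.88 and 0.89 without CONT 6). The one on 7 arrays had 0.61, with a 95% interval of -0.55 to 1.77, and 0.23 without CONT 6. The last probe passed the background mark nowhere, and no fold is given for it. These probes measure the same RNA in the same cows and do not add replicates. Without CONT 6 the unadjusted p of 4 of the 7 probes was under 0.05, which made 4 of 27 in the set. Of all probes 3.04% then had such a p, 1.66% with a higher mean in REST. By gene it was 1 of 10, against 2.86% of all genes, or 1.4% with a higher mean in REST. Without REST 3, the highest REST cow, 1 probe of VWF had an unadjusted p under 0.05, and that of the brightest probe was not under it. Within slides 1, 2 and 3 the brightest probe differed by 0.61, 0.11 and 1.71, the last being 1.02 without CONT 6. With slide as a block the log2 FC was 0.90 (SE 0.32). VWF and TIE1 were the 2 genes of the 10 that were higher in REST within all 3 slides, CONT 6 left out. Slide 1 held 1 REST array and slide 2 held 1 CONT array, so these directions rest partly on single cows. The share of all genes with the same pattern was not computed.

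**Figure D5:**
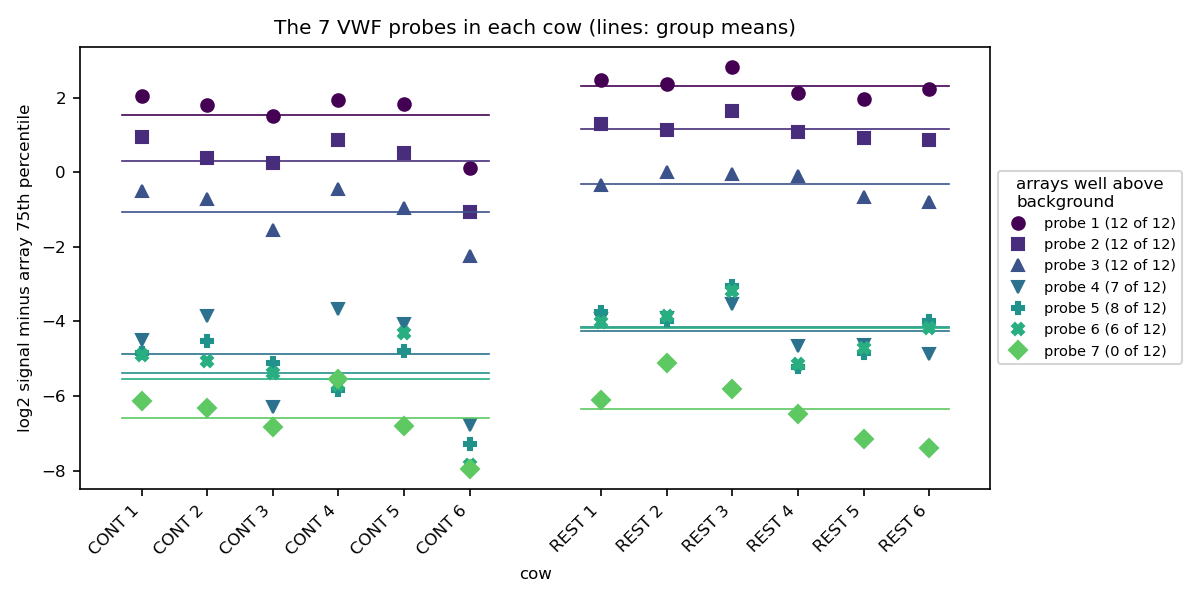
Log2 signal minus the array's 75th percentile (vertical axis) of the 7 VWF probes in each cow (horizontal axis), with lines for the group means; the legend counts the arrays on which a probe was well above background, and levels of different probes are not comparable. CONT 6 is the lowest cow on every probe, and REST 3 is the highest on 5 of the 7.

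Set against the other 8 endothelial genes of the same cow, VWF was higher in REST by 0.39 on the log2 scale, and by 0.37 without CONT 6. A difference of this size was not particular to VWF. By the same measure FLT1 had 0.18 with 12 cows. Without CONT 6 it had 0.49, with an SD of 1.17 in CONT and 1.05 in REST. VEGFA, set against the endothelial genes, went the other way, at -0.43 with 12 cows and -0.30 without CONT 6. The relative level of VWF was -0.82 to 0.14 in CONT and -0.41 to 0.68 in REST. Above every CONT cow lay 4 REST cows, whereas REST 2 and REST 5, which had the highest endothelial means, were below 0. Platelets also carry VWF protein. The platelet markers ITGA2B, PF4 and TUBB1 had log2 FC of 0.12, -0.62 and 0.017 (0.12, -0.60 and 0.0095 without CONT 6), and only ITGA2B passed the background mark on every array. The list mean of these 3 markers ranged from -4.03 to -3.28 in CONT and from -4.51 to -2.99 in REST.

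The endothelial genes varied together between cows to unequal degrees. CDH5 followed the mean of the other 8 most closely (Pearson r = 0.953, permutation p = 4.0e-05, adjusted 0.00040; Spearman rho = 0.860, permutation p = 0.00066, adjusted 0.0066; 12 cows, 10 genes tested). Without CONT 6 and REST 2, the cows farthest from the median, its r was 0.75, and within REST it was 0.891. Within CONT it was 0.962, with CONT 6 included. TEK (r = 0.923, rho = 0.720) and KDR (r = 0.892, rho = 0.699) followed, and for both the adjusted permutation p was 0.0048 for r and 0.046 for rho. Without those 2 cows their r was 0.545 and 0.531. After centring on the slides CDH5, TEK and KDR had r of 0.950, 0.913 and 0.879 with CONT 6 included. Without CONT 6 alone, and not centred, these were 0.776, 0.709 and 0.726.

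For the remaining genes the relation rested on few cows. PECAM1, VWF, TIE1, ENG and EMCN had r of 0.731 to 0.877 over 12 cows, and none had an adjusted permutation p under 0.05. Without CONT 6 and REST 2 these fell to values from -0.31 (TIE1) to 0.23 (ENG), with VWF at -0.15. FLT1 (r = 0.140) and VEGFA (r = 0.492) did not pass the test with 12 cows either.

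The named genes outside the set with the profile most like the endothelial mean, among 8992 genes that passed the background mark throughout, were RASIP1 (r = 0.983), JAM2 (0.978), TNS1 (0.969), ESAM (0.960), EGFL7 (0.958), ABLIM3 (0.951), DIPK2B (0.945), ANXA13 (0.943), ADCY4 (0.943) and EPAS1 (0.940). These values are descriptions over 12 cows that include CONT 6. Without it RASIP1 had 0.911, TNS1 0.901 and JAM2 0.894, and 3 of the 10 were again among the 10 most alike. For VEGFA the most alike were ADAM23 (0.942), ELANE (0.930) and C22H3orf22 (0.928), and the r of all 3 stayed above 0.9 without CONT 6.

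The other genes of the pathways gave a similar picture of small differences between diets. Of 6 measured VEGF ligands and receptors beside the set, 4 had a higher mean in REST, 3 without CONT 6, and 0 an unadjusted p under 0.05 in either. The share of all genes with a higher mean was 43.5%, and 40.2% without CONT 6. With 12 cows VEGFB (log2 FC 0.31, SE 0.19) and the co-receptor NRP2 (0.38, SE 0.24) had the lowest p among these 6, and were at 0.28 and 0.24 without CONT 6. NRP2 was well above background on 10 arrays. PGF had the largest log2 FC of the 6, at 0.39 (SE 0.44), and 0.61 (SE 0.43) without CONT 6. VEGFC, a lymphatic growth factor, had -0.0024, and -0.056 without that cow. The angiopoietins ANGPT1, ANGPT2 and ANGPT4 and the phosphatase PTPRB had log2 FC of 0.24, 0.37, 0.12 and 0.33 with 12 cows. Without CONT 6 these were 0.28, 0.30, -0.089 and 0.013, and none had an unadjusted p under 0.05 in either.

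Of 8 partners of endoglin in BMP signaling, 4 were well above background on every array, with the receptor ACVRL1 (ALK1) at a log2 FC of 0.22 (SE 0.22), the target genes ID1 at 0.47 (SE 0.30) and ID3 at 0.058, and TGFBR2 at 0.061. Without CONT 6 these were 0.046, 0.26, -0.026 and 0.028. SMAD6 and BMP10 passed the background mark on no array, so no fold is given for them. Of 9 VEGF-Notch target and tip cell genes 5 were higher in mean, with a median log2 FC of 0.075, and without CONT 6 it was 4 and a median of -0.15. Over all genes 43.5% were higher in mean, and 40.2% without CONT 6. HEY2, a Notch target of arterial endothelium, was well above background on 3 arrays only, so that its values lie near background. Its log2 FC was -0.94 with 12 cows, -1.19 without CONT 6, where the unadjusted p was under 0.05, and -0.29 with slide as a block. Hypoxia genes, which include the oxygen-sensing regulators upstream of VEGFA, had a higher mean in REST for 6 of 12, with a median of 0.0044, and for 4 of 12, with a median of -0.064, without CONT 6. HIF1A had -0.014, or 0.024 without CONT 6, and its endothelial relative EPAS1 0.39, or 0.086 without CONT 6.

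Beside the set, 17 of the 21 other endothelial markers had a higher mean in REST and the median log2 FC was 0.25, and none had an unadjusted p under 0.05. Without CONT 6 these were 11 of 21 and a median of 0.0073. The median over all genes was -0.034 and, without CONT 6, -0.055. A higher mean in REST was found for 43.5% of all genes, and for 40.2% without CONT 6. GJA5, a gap junction gene of arteries, had a lower mean in REST when CONT 6 was left out (log2 FC -0.63, unadjusted p under 0.05), and its log2 FC was -0.25 with 12 cows and -0.32 with slide as a block. Mural cell markers had a higher mean in REST for 4 of 9 (median -0.021), and for 2 of 9 (median -0.23) without CONT 6. Their mean level was 0.47 in CONT 6, 1.17 to 1.78 in the other CONT cows and 1.053 to 1.51 in REST cows.

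Fibroblast markers mostly had a lower mean in REST, unlike the endothelial ones with 12 cows. This held for 5 of the 6, and for all 6 without CONT 6. A lower mean was also the more common direction over all genes. Only 43.5% of them were higher in REST, and 40.2% without CONT 6. The collagen genes COL1A1 (log2 FC -0.72, SE 0.31) and COL1A2 (-0.65, SE 0.27) and the proteoglycan LUM (-0.84, SE 0.24) had an unadjusted p under 0.05, none passing the adjustment. Their exact permutation p was 0.0649, 0.0325 and 0.00866. Of all 12639 genes, 128 had an unadjusted p under 0.05 and a lower mean in REST. The mean level of the list ranged from 2.45 to 2.82 in CONT and from 1.35 to 3.02 in REST, with the lowest in REST 2, the cow with the highest endothelial mean. The median log2 FC of -0.63 was -0.58 without CONT 6 and -0.35 with slide as a block, where COL1A1 was at -0.39, COL1A2 at -0.45 and LUM at -0.83. CONT and REST were unequally spread over slides 1 and 2. Without CONT 6 the unadjusted p was under 0.05 for COL1A1 and LUM and not for COL1A2. Among all 12639 genes, 184 then had such a p with a lower mean in REST. The lymphatic marker CCL21, a chemokine that draws dendritic cells and T cells, had -1.24 (SE 0.56, exact permutation p = 0.0693; unadjusted limma p under 0.05 with 12 cows and not without CONT 6), and 2 of 6 lymphatic markers were higher in REST with and without that cow. Leukocyte markers had a higher mean in 3 of 8, luminal markers in 6 of 8, myoepithelial markers in 1 of 4 and adipocyte markers in 3 of 4. The share over all genes was 43.5%. Without CONT 6 the 4 counts were 4, 5, 2 and 3, beside 40.2% of all genes. Such small lists near the share of all genes show no shift of a cell type. The adipocyte exception was LEP (leptin), well above background in 4 CONT cows and 1 REST cow. Its log2 FC was -1.02 with 12 cows, -1.51 without CONT 6, where the unadjusted p was under 0.05, and -0.39 with slide as a block. Whether these shifts take part in the endothelial values was not tested.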

How the data were processed

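The authors amplified 100 ng of total RNA per biopsy, labeled it with Cy3, and extracted the spot data with Agilent Feature Extraction 11.0.1.1. The deposited values used are its processed spot intensity, background-corrected, not normalized between arrays. Control spots and outlier spots were left out, log2 intensities were shifted by the array's 75th percentile, and spots of a probe were averaged (205 of 43653 probes had a missing value, none of the set). Genes were named by RefSeq accession without version, and positions are not given because the array annotation and the RefSeq table differ in assembly. Of 141 list genes, 118 were found on the array by this match. Diets were compared with limma 3.58.1 (R 4.3.3; lmFit, eBayes, no covariate), with Benjamini-Hochberg adjustment over all probes, two-sided. The pipeline was tested on simulated data. Exact permutation tests covered single probes (smallest possible p 0.00216), with no adjustment, and correlations used 100000 permutations, for which the smallest possible p is 1e-05 and Benjamini-Hochberg covered the 10 genes.

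The labels describe biological replicates, and group numbers follow the deposit order. The number of arrays limits the precision. The rule for genes named was all 10 of the set, list genes with an unadjusted p under 0.05 or separate groups, and those most like the endothelial mean (10) or VEGFA (3). HEY2, GJA5 and LEP met the p threshold only without CONT 6. They and other list genes that are named were chosen after their values were seen. The genes and the lists were chosen with earlier results of these data known. Alternatives were Westfall-Young adjustment (100 splits), median or quantile scaling, normexp (offset 50), the deposited matrix, a background filter, outlier spots kept, slide as a block, an intensity trend, other probe summaries, and leaving out each cow. The fit without CONT 6 and with slide as a block, and the lists without CONT 6, were added after the data were seen. Figures were drawn with matplotlib 3.10.9.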

Additional observations from a re-analysis of the deposited data

Results flagged for a closer look

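For 5 genes the value of CONT 6 lay far below the other CONT cows, with a gap to the next cow that exceeded Dixon's critical value for 6 samples. These were PECAM1 (-0.64), VWF (0.12), CDH5 (-4.39), TEK (-2.34) and ENG (1.17), in log2 signal minus the array's 75th percentile. For EMCN the value of REST 4 (0.36) lay apart from the other REST cows in the same way. Chance alone marks about 1 in 20 groups. Over all 27 probes 14 of 54 groups were marked, against 2.7 expected by chance, and CONT 6 was the low cow in 13 of them. The groups are not independent, since probes share genes and cows.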

How the results depend on the processing

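Under all alternatives run, 0 probes of the set and 0 of all probes passed the adjusted threshold, and the mean of PECAM1, VWF, FLT1 and TIE1 was higher in REST. That of KDR was too, but by 0.0027 (SE 0.36) without CONT 6 and with slide as a block. The log2 FC of VWF was 0.50 to 0.90, and its unadjusted limma p was over 0.05 only without REST 3 (0.0516). The number of probes with an unadjusted p under 0.05 was 5, and 2 with normexp, 3 with the background filter (fewer probes tested), and 1 to 5 when a cow was left out. The number of genes higher in REST was 10, 7 to 10 when a cow was left out, and 6 without CONT 6 and with slide as a block. VEGFA turned to -0.045 with median scaling, -0.012 with normexp and -0.077 with slide as a block. Leaving out a cow gave -0.17 to 0.16 for VEGFA (negative without CONT 5 at -0.0036, CONT 6 at -0.12, REST 2 at -0.073 and REST 5 at -0.17). It gave -0.058 to 0.36 for ENG and -0.027 to 0.33 for EMCN, negative without CONT 6 in both. Without CONT 6 and with slide as a block, CDH5 was -0.021, TEK -0.18, ENG -0.18 and VEGFA -0.15. The cause of these changes was not tested. The endothelial mean difference was 0.18 to 0.54 when a cow was left out, and 0.095 without CONT 6 and with slide as a block. CONT 6 was lowest for 8 of 9 endothelial genes with the 75th percentile, median, quantile and normexp settings, and the mean deviation of these genes in that cow was -1.57, -1.43, -1.48 and -1.45. The median deviation of all genes moved from -0.11 to 0.032 with median scaling and -0.28 with normexp. FLT1 has no value with the background filter or from probes bright on all arrays, because neither of its probes qualified. No paired analysis was possible because the labels hold nothing that pairs a CONT cow with a REST cow: every cow has the same replicate number. Dim probes of VWF, CDH5, KDR and FLT1 limit what those probes can show.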
